A study of Mus musculus with 6 samples.

Results

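The mitochondrial ribosome genes analysed here were the rows of a mouse gene count table whose symbol was Mrpl or Mrps followed by a number and at most 1 letter. This rule found 78 of the 29872 genes, 49 Mrpl genes named for the large subunit and 29 Mrps genes named for the small subunit. RNA sequencing libraries of 3 CML (chronic myeloid leukaemia) samples were compared with those of 3 WT (wild type) samples. All 6 came from bone marrow of the C57BL/6 background, were untreated and expanded ex vivo, and carried the sort label Lin-Sca1+cKit+CD150+, a gate for haematopoietic stem cells. The allele or transgene behind the CML label, the cells it is active in, the age of the mice and the number of mice per library are not given by the labels. The labels do not say whether the 3 libraries within a group were separate mice or cultures, so p-values cover only the spread from library to library, part of which may be technical.

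The mitochondrial ribosome translates the few messenger RNAs made from mitochondrial DNA, which encode core subunits of the respiratory chain and of ATP synthase. Its ribosomal RNAs come from mitochondrial DNA, whereas its proteins are encoded in the nucleus, made in the cytosol and imported. The large subunit forms peptide bonds and guides the new chain towards the inner membrane, and the small subunit binds the messenger RNA and decodes it. Some of its proteins have bacterial homologues and others were added in mitochondria. In blood-forming stem cells, mitochondrial translation and respiration are known to be kept low at rest and to increase with activation.

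The genes lie on 17 chromosomes and encode proteins of 87 to 442 residues (median 194; GENCODE release M21 on GRCm38). Of the 78 genes, 18 (23.1%) started head to head with another protein-coding gene on the opposite strand within 1000 bases upstream, against 6.76% of 22028 protein-coding genes. RefSeq promoter windows (GRCm38.p6, from 250 bases before to 50 bases after the annotated start) matched 69 of the 78 genes. These 300-base windows were searched on both strands for 4 motifs: GCGCANGCG, a core of the NRF1 motif, CCGGAAG, a core of the ETS motif bound by GABP, AAGATGGCG, a YY1 motif, and CACGTG, the E-box bound by MYC and its relatives. Matches of the NRF1 core to the opposite strands of 1 site overlap, and a match is a description of letters, not of a bound site.

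Windows of 5 genes that were lower in CML and held a match are shown because they carry each of the 4 motifs beside the expression result. Letters matching any of the motifs are in capitals, and each window runs 5′ to 3′ along its gene.

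Mrps18c (chr5:100798509-100798808, plus strand): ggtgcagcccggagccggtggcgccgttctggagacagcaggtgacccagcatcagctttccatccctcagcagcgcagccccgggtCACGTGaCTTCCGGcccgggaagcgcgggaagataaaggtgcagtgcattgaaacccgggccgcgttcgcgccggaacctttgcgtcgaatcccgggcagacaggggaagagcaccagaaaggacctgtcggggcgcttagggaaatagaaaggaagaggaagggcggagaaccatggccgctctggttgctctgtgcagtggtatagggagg
Mrpl35 (chr6:71823735-71824034, minus strand): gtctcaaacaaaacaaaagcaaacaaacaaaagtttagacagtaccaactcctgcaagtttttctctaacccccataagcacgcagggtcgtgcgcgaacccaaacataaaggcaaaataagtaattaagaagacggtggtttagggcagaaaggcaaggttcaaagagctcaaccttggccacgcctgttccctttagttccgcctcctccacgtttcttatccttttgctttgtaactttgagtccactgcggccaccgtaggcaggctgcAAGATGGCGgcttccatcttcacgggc
Mrpl42 (chr10:95501900-95502199, minus strand): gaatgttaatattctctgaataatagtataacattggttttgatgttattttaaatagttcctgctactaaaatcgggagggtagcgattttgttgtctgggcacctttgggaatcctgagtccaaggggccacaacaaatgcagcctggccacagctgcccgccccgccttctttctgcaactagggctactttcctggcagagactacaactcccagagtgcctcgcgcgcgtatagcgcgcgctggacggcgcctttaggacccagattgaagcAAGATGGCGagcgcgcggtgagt
Mrps27 (chr13:99344536-99344835, plus strand): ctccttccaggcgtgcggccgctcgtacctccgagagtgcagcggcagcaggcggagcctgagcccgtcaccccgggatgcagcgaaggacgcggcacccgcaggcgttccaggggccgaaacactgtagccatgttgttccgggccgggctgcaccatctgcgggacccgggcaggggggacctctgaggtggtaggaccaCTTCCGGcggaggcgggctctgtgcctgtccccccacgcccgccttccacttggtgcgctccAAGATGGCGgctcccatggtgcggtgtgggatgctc
Mrpl32 (chr13:14612988-14613287, minus strand): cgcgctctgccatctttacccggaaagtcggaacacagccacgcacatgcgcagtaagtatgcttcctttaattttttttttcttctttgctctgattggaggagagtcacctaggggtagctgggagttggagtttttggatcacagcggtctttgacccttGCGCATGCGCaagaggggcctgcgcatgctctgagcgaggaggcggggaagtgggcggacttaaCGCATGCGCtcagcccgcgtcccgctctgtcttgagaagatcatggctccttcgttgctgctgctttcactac

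The Mrps18c window held an E-box and an ETS core side by side. Mrpl35, Mrpl42 and Mrps27 each held the YY1 motif just downstream of the annotated start, and Mrps27 also held an ETS core. Mrpl32 held NRF1 matches at 2 places, where 2 of its 3 counted matches overlap. The 69 mitoribosomal genes had 75 windows, because 3 genes had several, and a gene was counted once if any of its windows matched. At least 1 of the 4 motifs was found for 44 of the 69 genes (63.8%), against 28.8% of protein-coding genes in the promoter table. The ETS core was found in 26 of the 69 (37.7%, against 13.4% of protein-coding genes), the NRF1 core in 16 (23.2%, against 10% of them), the YY1 motif in 8 (11.6%, against 2.25%) and the E-box in 5 (7.25%, against 9.18%). Among all 27025 genes of that table, the shares were 9.93%, 7.03%, 1.64% and 8.09% in the same order of motifs. Of the 9 genes called lower in CML, 3 held the YY1 motif, 3 the ETS core, 1 the NRF1 core and 1 the E-box. Of the 60 uncalled genes with a window, 5, 23, 15 and 4 held them in the same order.

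**Figure D1:**
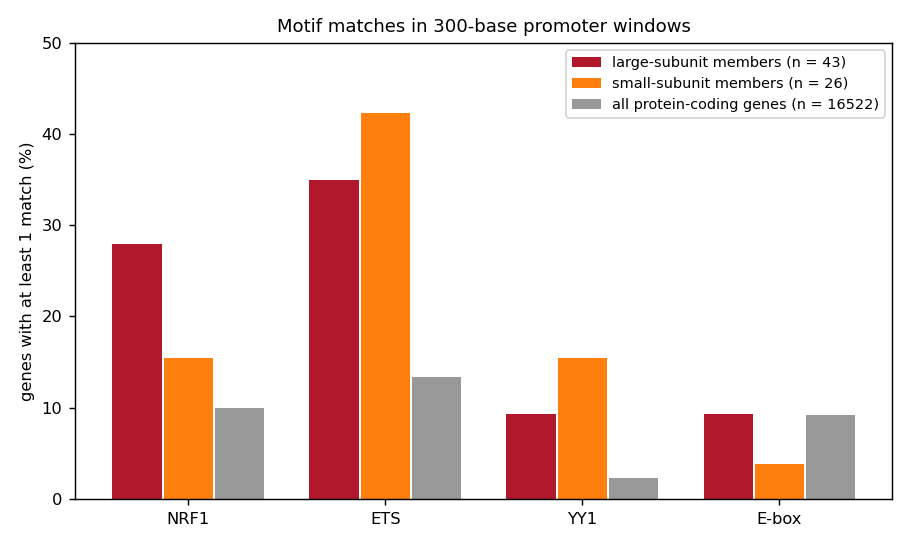
Share of genes (%) with at least 1 match to each motif in 300-base promoter windows, for large-subunit genes (n = 43), small-subunit genes (n = 26) and all protein-coding genes in the promoter table (n = 16522). The ETS core was found for 34.9% of large-subunit and 42.3% of small-subunit genes, against 13.4% of all.

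The count libraries held 13323552 to 17926866 counts each. Counts were scaled to CPM (counts scaled to a common library size by the trimmed mean of M values, TMM), and 16221 genes had enough counts to be tested. All 78 mitoribosomal genes were among them, with at least 51 counts in every library. Between CML and WT, 1168 of the tested genes were lower in CML and 1652 higher (7.2% and 10.2%; edgeR quasi-likelihood test, Benjamini-Hochberg adjusted p under 0.05 over all tested genes). Within a group, pairs of libraries had Spearman coefficients from 0.983 to 0.992 over genes, and no pair differed as little as sampling noise would give (smallest chi-square per degree of freedom 8.57).

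Mitoribosomal genes were slightly lower in CML or did not pass the test. Of the 49 large-subunit genes 3 fell, 0 rose and 46 did not pass, and of the 29 small-subunit genes 6 fell, 0 rose and 23 did not pass. The 9 that fell make 11.5% of the 78 genes, beside 7.2% of all tested genes lower in CML, and none of the 78 was called higher, beside 10.2% of all. Taken apart, 6.12% of the large-subunit genes fell, slightly under the share of all tested genes, and 20.7% of the small-subunit genes. Among the 78, an unadjusted p under 0.05 was reached by 22 genes with a negative fold change (28.2%) and by 1 with a positive one (1.28%), beside 15.1% and 16.6% of all tested genes. The median log2 fold change was -0.12 for the large subunit and -0.22 for the small subunit, where the median of all tested genes was 0.00 to 2 decimals (-0.0043). Fold changes were negative for 62 of the 78 genes (79.5%), beside 50.4% of all tested genes. Scaled by library totals alone, 46 of the 78 were negative and 1 was called, and the medians were -0.03 and -0.12 while the median of all genes was 0.09. Relative to that median of all genes, the large subunit stood at -0.13 and the small subunit at -0.21, beside -0.12 and -0.21 with TMM scaling.

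**Figure D2:**
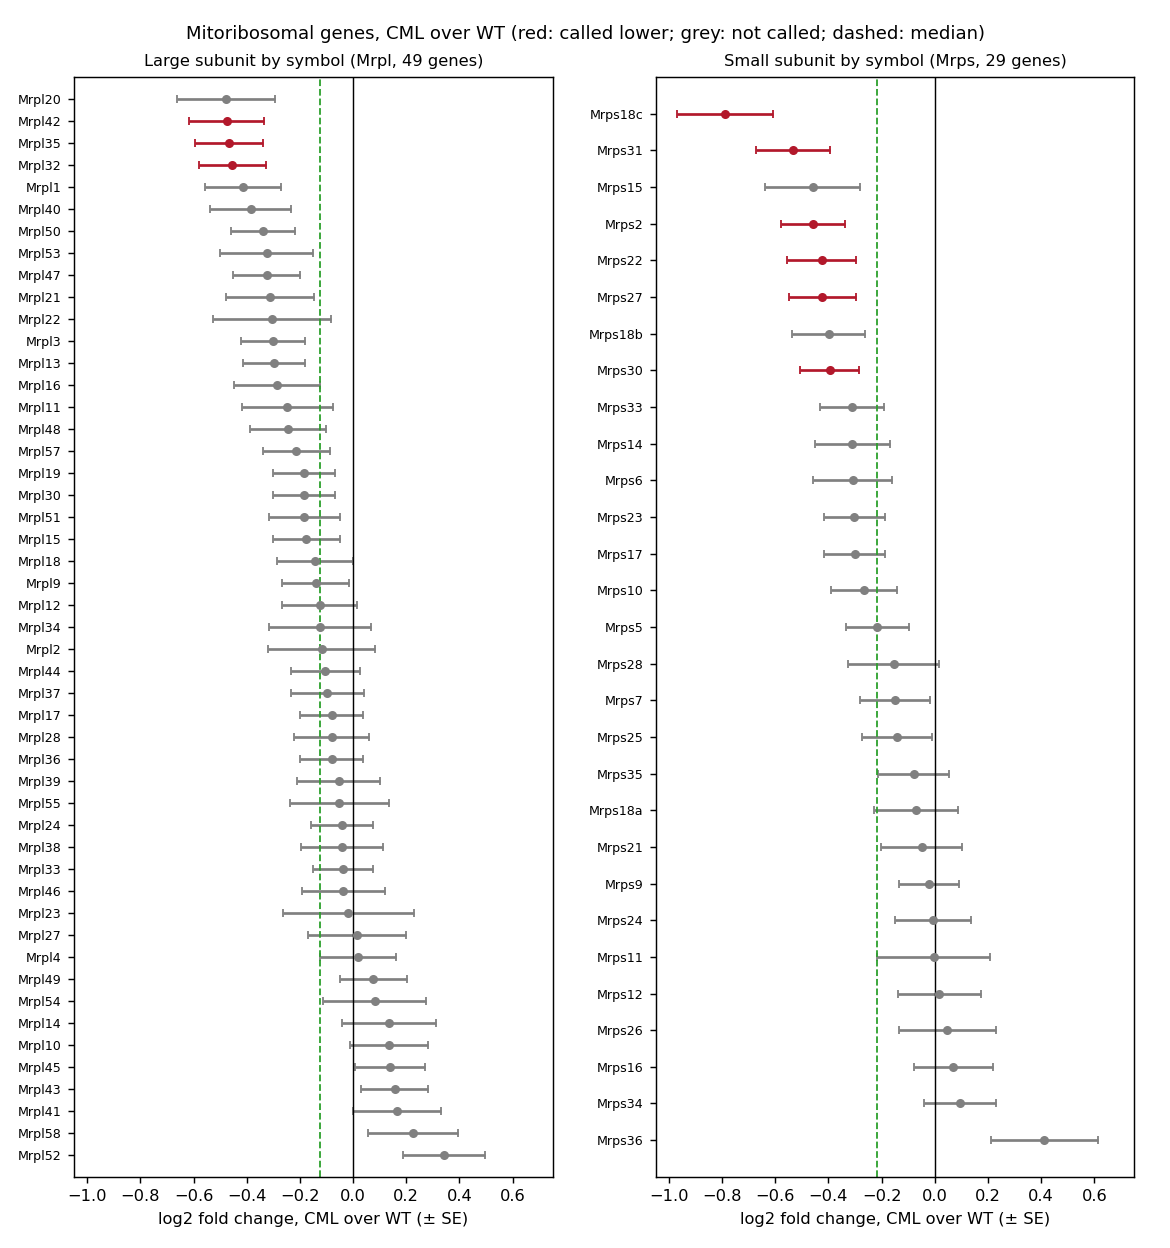
log2 fold change of CML over WT with its standard error (SE) for each of the 49 Mrpl and 29 Mrps genes, ordered by value; red points are genes called lower in CML, grey points are not called, and the dashed line is the median of each panel. Values run from -0.48 to 0.34 for Mrpl genes and from -0.79 to 0.41 for Mrps genes.

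Of the small-subunit genes, Mrps18c had the lowest fold change of the 78. It encodes a homologue of a bacterial small-subunit protein (chromosome 5, 100798627 to 100804471, GRCm38). Mrps18c had 13.2, 10.5 and 10.7 CPM in CML replicates 1, 2 and 3, against 23.5, 20.5 and 15.5 CPM in WT replicates 1, 2 and 3. The groups did not overlap, and the CML mean was 57.9% of the WT mean (log2 fold change -0.79, SE 0.18, adjusted p = 0.00918, edgeR). It has 2 relatives of the same bacterial ancestry with other places in the ribosome, of which Mrps18b is counted below as a mitochondrial addition. Mrps18b had 32.5, 23.7 and 26.8 CPM in CML, against 35.7, 35.2 and 38.6 CPM in WT. Its groups did not overlap either, but with -0.40 as log2 fold change it did not pass (SE 0.14, adjusted p = 0.0626). Mrps18a, whose protein sits in the large subunit, had 14.2, 13.5 and 13.8 CPM in CML, against 13.3, 13.3 and 17.1 CPM in WT. Its groups overlapped, with -0.07 as log2 fold change (SE 0.16, adjusted p = 0.798), which turned to 0.022 with library totals and 0.058 without WT replicate 3. The difference between these 3 relatives was not tested.

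Mrps2, another homologue of a bacterial protein (chromosome 2, 28468066 to 28471178), had 55.2, 49.97 and 52.7 CPM in CML, against 80.8, 70.02 and 66.1 CPM in WT. All CML libraries lay below all WT libraries (log2 fold change -0.46, SE 0.12, adjusted p = 0.0185). Mrps31, a protein of the small subunit without a bacterial counterpart (chromosome 8, 22411361 to 22429665), had 14.4, 15.03 and 15.1 CPM in CML, against 20.7, 23.7 and 20.1 CPM in WT. Here too the groups were apart, and the CML values were close to each other (log2 fold change -0.53, SE 0.14, adjusted p = 0.0190). Mrps27, a pentatricopeptide repeat protein added in mitochondria (chromosome 13, 99344786 to 99415562), had 31.8, 27.6 and 26.7 CPM in CML, against 35.1, 39.96 and 40.2 CPM in WT. The nearest values of its groups were those of CML replicate 1 and WT replicate 1 (log2 fold change -0.42, SE 0.13, adjusted p = 0.0356).

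Mrps22, a further mitochondrial addition (chromosome 9, 98588730 to 98601660), had 24.98, 21.7 and 20.03 CPM in CML, against 28.9, 30.5 and 30.3 CPM in WT. Its groups were apart, with the WT values the closer together (log2 fold change -0.43, SE 0.13, adjusted p = 0.0401). Mrps30 is named for the small subunit, but its protein is placed in the large subunit in structures of the mammalian ribosome (chromosome 13, 118378381 to 118387252). It had 54.7, 52.6 and 52.0 CPM in CML, against 73.1, 71.6 and 64.8 CPM in WT. No CML value reached the lowest WT value (log2 fold change -0.39, SE 0.11, adjusted p = 0.0273). A gene on the opposite strand, B430218F22Rik, overlaps Mrps30, and the labels do not state the strand setting of the counting.

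Of the large-subunit genes, Mrpl35 (chromosome 6, 71812997 to 71826969), Mrpl32 (chromosome 13, 14608184 to 14613165) and Mrpl42 (chromosome 10, 95480805 to 95501940) fell. Mrpl35, which has a bacterial homologue, had 44.1, 36.8 and 35.7 CPM in CML, against 58.5, 53.7 and 49.02 CPM in WT, with -0.47 as log2 fold change, 0.13 as SE and 0.0242 as adjusted p. Mrpl32, a protein trimmed after import by the m-AAA protease, had 32.6, 29.7 and 28.0 CPM in CML, against 42.5, 44.3 and 36.9 CPM in WT, with -0.45 as log2 fold change, 0.13 as SE and 0.0252 as adjusted p. Both genes had no overlap between groups. Mrpl42, a mitochondrial addition, had 20.3, 21.6 and 18.7 CPM in CML, against 31.1, 28.9 and 24.2 CPM in WT, with -0.48 as log2 fold change, 0.14 as SE and 0.0335 as adjusted p. Its groups were apart as well, and in all 3 genes WT replicate 3 was the lowest WT library.

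**Figure D3:**
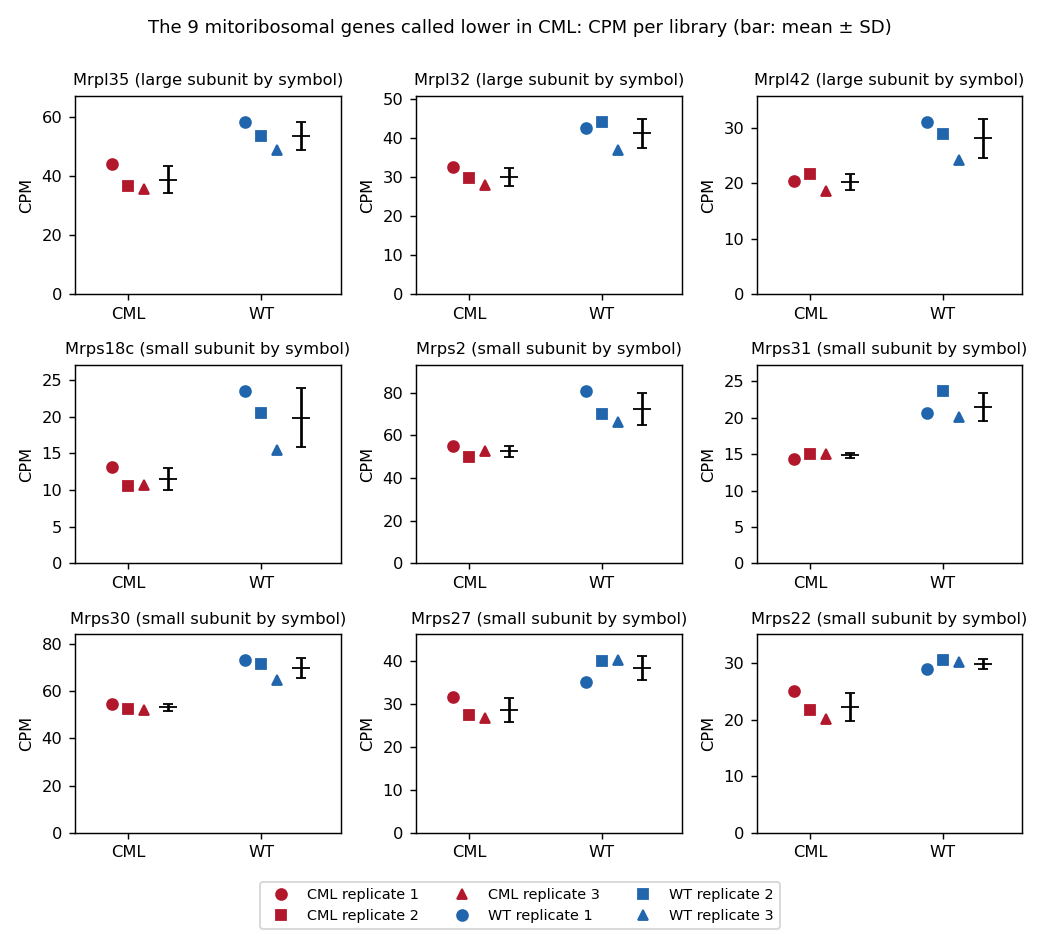
CPM of the 9 mitoribosomal genes called lower in CML in each of the 3 CML (red) and 3 WT (blue) libraries, with the group mean and SD in black; every axis starts at 0. In each panel the 3 CML values lie below the 3 WT values, with CML means between 57.9% (Mrps18c) and 76.1% (Mrps30) of the WT mean.

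These calls were close to the threshold. Mrps18c passed in each of the 15 alternatives computed, with adjusted p between 8.59e-04 and 0.0443. The other 8 were all lost without CML replicate 2 (adjusted p from 0.0539 to 0.124), without CML replicate 3 (0.0607 to 0.174) or without WT replicate 2 (0.0618 to 0.154). Without WT replicate 1, Mrps18c, Mrps27 and Mrps31 passed and 6 did not (0.0664 to 0.124). Without CML replicate 1, Mrpl42 was lost (0.0516) and 13 of the 78 genes were called. Without WT replicate 3, all 9 passed and 13 genes were called in all. The sign of the 9 stayed negative in each of these fits.

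A few genes had fold changes as large as some of those called but missed the threshold. Mrpl20 had 10.4, 7.08 and 7.70 CPM in CML, against 11.3, 12.1 and 11.8 CPM in WT, and Mrps15 had 7.78, 7.15 and 8.01 CPM in CML, against 12.1, 10.5 and 8.97 CPM in WT. Both encode homologues of bacterial proteins, their groups did not overlap, and on the log2 scale they differed by -0.48 for Mrpl20 (SE 0.18, adjusted p = 0.0923) and -0.46 for Mrps15 (SE 0.18, adjusted p = 0.0964). Mrpl20 passed without CML replicate 1 (0.0243) and Mrps15 without WT replicate 3 (0.0365). Mrpl1, part of the stalk by which spent transfer RNA leaves and named after its values were seen, had 53.0, 46.5 and 40.4 CPM in CML, against 71.0, 62.6 and 52.8 CPM in WT. Its groups overlapped narrowly, where CML replicate 1 lay just above WT replicate 3 (log2 fold change -0.41, SE 0.14, adjusted p = 0.0618), and it passed without CML replicate 1 (0.0282) or WT replicate 3 (0.0186), with no low-count filter (0.0274), with DESeq2 (0.0434) and with the replicate block (0.0305).

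Few genes lay on the other side. Fold changes were positive for 16 of the 78 genes, and none passed. Mrpl52, named after its values were seen, was the single gene whose CML values all lay above its WT values, at 13.6, 13.9 and 14.8 CPM in CML, against 10.2, 12.1 and 11.1 CPM in WT, with 0.34 as log2 fold change, 0.15 as SE and 0.148 as adjusted p. In all, 27 of the 78 genes (34.6%) had every CML value below every WT value, beside 16.5% of all tested genes, and 1 had every CML value above, beside 18.5% of all. The largest positive value was that of Mrps36, which was first named as a ribosomal protein and is now known as a part of the oxoglutarate dehydrogenase complex. It had 12.2, 8.83 and 9.76 CPM in CML, against 6.21, 8.84 and 8.16 CPM in WT. CML replicate 2 lay within the WT values (log2 fold change 0.41, SE 0.20, adjusted p = 0.177). Mrps36 has processed pseudogenes, of which 2 had rows of their own with at most 8 counts in a library.

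Mrpl12 and Mrpl58 have roles beyond structure. Mrpl12 forms the stalk that recruits translation factors, and it had 35.5, 30.1 and 32.9 CPM in CML, against 30.6, 34.7 and 42.4 CPM in WT. The groups overlapped widely (log2 fold change -0.13, SE 0.14, adjusted p = 0.590), and the value was 0.0087 without WT replicate 3. Mrpl58, a peptidyl-tRNA hydrolase that frees stalled chains, had 14.4, 11.3 and 12.96 CPM in CML, against 9.74, 11.05 and 12.3 CPM in WT. These groups overlapped too (log2 fold change 0.23, SE 0.17, adjusted p = 0.397).

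Grouped by ancestry, the medians of the log2 fold change were as follows. The 30 large-subunit genes with a bacterial homologue had a median of -0.14 with 2 called lower (6.67%). The 19 mitochondrial additions of that subunit had -0.05 with 1 called lower (5.26%). Both shares were slightly under the 7.2% of all tested genes called lower. In the small subunit, 16 genes with a bacterial homologue had a median of -0.19 with 2 called lower (12.5%). The 10 mitochondrial additions of the small subunit had -0.31 with 3 called lower (30%). With Mrps30 and Mrps18a counted where their proteins sit and Mrps36 left out, 4 of 51 large-subunit and 5 of 26 small-subunit genes were called lower. These make 7.84% and 19.2%, beside 7.2% of all tested genes, and the medians were -0.12 and -0.24. The difference between subunits was not tested.

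Levels between genes were compared as CPM per kilobase of annotated exon, taken as the union of all transcripts of a gene. On that scale the median gene stood at 10.01 in CML and 10.9 in WT for the large subunit, and at 8.07 in CML and 9.72 in WT for the small subunit. By the mean of both groups, the highest large-subunit levels were those of Mrpl28 (29.3 in CML and 31.0 in WT), Mrpl36 (27.6 and 29.1) and Mrpl50 (22.7 and 28.8), and the highest small-subunit levels those of Mrps23 (24.3 and 30.0), Mrps2 (18.03 and 24.8) and Mrps28 (19.0 and 21.2). Of these 6 genes only Mrps2 was called, and the log2 fold changes of the others ran from -0.34 for Mrpl50 to -0.08 for Mrpl28 and Mrpl36. Mrpl50, a mitochondrial addition, had 53.5, 44.4 and 46.3 CPM in CML, against 56.8, 62.4 and 63.3 CPM in WT, with no overlap but an adjusted p of 0.0687. Mrpl28 had 43.2, 35.9 and 42.0 CPM in CML, against 36.7, 40.7 and 50.8 CPM in WT, and Mrpl36 had 33.0, 30.9 and 32.0 CPM in CML, against 31.4, 34.1 and 35.999 CPM in WT. The groups of both genes overlapped. In Mrps28, CML replicate 1 was the highest of all 6 libraries, at 18.4, 12.8 and 13.5 CPM in CML, against 14.99, 16.8 and 17.9 CPM in WT.

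By the same mean, the lowest per-length levels were those of Mrpl23 (0.92 in CML and 0.93 in WT), Mrpl48 (1.93 and 2.29) and Mrpl58 (3.87 and 3.31) in the large subunit, and of Mrps10 (3.08 and 3.70), Mrps35 (3.75 and 3.96) and Mrps18a (3.76 and 3.95) in the small subunit. None of the 6 was called, and their log2 fold changes ran from -0.27 for Mrps10 to 0.23 for Mrpl58. Mrps10 had 27.1, 24.3 and 23.3 CPM in CML, against 29.9, 31.1 and 28.8 CPM in WT, and Mrpl48 had 15.4, 15.6 and 16.2 CPM in CML, against 16.7, 19.1 and 20.1 CPM in WT, both without overlap. Mrps35 had 31.3, 28.7 and 37.1 CPM in CML, against 32.9, 32.6 and 37.1 CPM in WT, and its groups overlapped. In CML alone, Mrpl10 and Mrpl44 stood above Mrpl50, Mrps24 stood above Mrps2, and Mrpl16 and Mrpl11 stood below Mrpl58. Union exon lengths of 8079 bases for Mrps10, 8631 for Mrps35 and 8152 for Mrpl48 lower their values on this scale. So do 4883 bases for Mrpl23 and 3690 for Mrps18a, whose longest annotated coding transcripts have 736 and 884 bases. Mrpl23, a protein at the exit of the nascent chain, had 3.20, 4.96 and 5.26 CPM in CML, against 4.36, 4.10 and 5.11 CPM in WT. Its processed pseudogene Mrpl23-ps1 has a row of its own with 684, 415 and 603 counts in CML, against 604, 647 and 797 in WT, many more than Mrpl23 itself. How reads shared by the pair were divided is not given, so the level of Mrpl23 is uncertain.

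Replicate spread was modest for most of these genes. The median coefficient of variation of the 78 genes was 8.995% in CML and 8.56% in WT, and SEs of the log2 fold change ran from 0.11 to 0.25. CML replicate 2 was the lowest of the 6 libraries for 36 of the 78 genes and WT replicate 3 the highest for 32. The median log2 ratio to the WT mean over the large-subunit genes was -0.01, -0.25 and -0.14 in CML replicates 1, 2 and 3, against -0.05, -0.02 and 0.09 in WT replicates 1, 2 and 3. For large-subunit genes CML replicate 1 thus lay within the WT libraries. Over the small-subunit genes it was -0.14, -0.30 and -0.26 in CML, against -0.05, 0.01 and 0.02 in WT, with no overlap. Large-subunit genes summed to 0.155%, 0.133% and 0.141% of all counts in CML, against 0.141%, 0.145% and 0.161% in WT. Small-subunit genes summed to 0.0865%, 0.0766% and 0.0813% of counts in CML, against 0.0874%, 0.0903% and 0.0937% in WT. In such bulk samples, fewer cells of a type and less RNA per cell cannot be told apart.

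The fold changes moved with base composition. GC content was taken from the longest annotated coding transcript of each gene. Across the 78 genes, the Spearman coefficient between GC content and log2 fold change was 0.44, and across the 15839 tested genes with a GC value it was 0.30. These points share the same libraries and are not independent. The 9 genes called lower had a median GC content of 44.5% (42.2% to 52.2%), and the 69 others 51.3% (39.6% to 60.6%). Below 45% GC, all 14 mitoribosomal genes had a negative fold change (median -0.33, 5 called lower), where the median of 4588 tested genes of that range was -0.18 and 13.3% were called lower. From 45% to 50% GC, 25 mitoribosomal genes had a median of -0.14 with 3 called lower. The 4214 tested genes of that range had a median of -0.04, and 7.97% were called lower. From 50% to 55% GC, the median of 23 mitoribosomal genes was -0.15 with 1 called lower, beside a median of 0.09 and 3.37% called lower among 3944 tested genes. From 55% GC upwards, 16 mitoribosomal genes had a median of -0.02 and 0 were called lower. Among the 3093 tested genes of that range the median was 0.16 and 2.13% were called lower. The WT libraries differed among themselves along GC content: over all genes with a GC value, the coefficient between GC and the log2 ratio to the WT mean was 0.26, 0.26 and 0.32 in CML replicates 1, 2 and 3, against -0.47, -0.30 and 0.59 in WT replicates 1, 2 and 3.

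**Figure D4:**
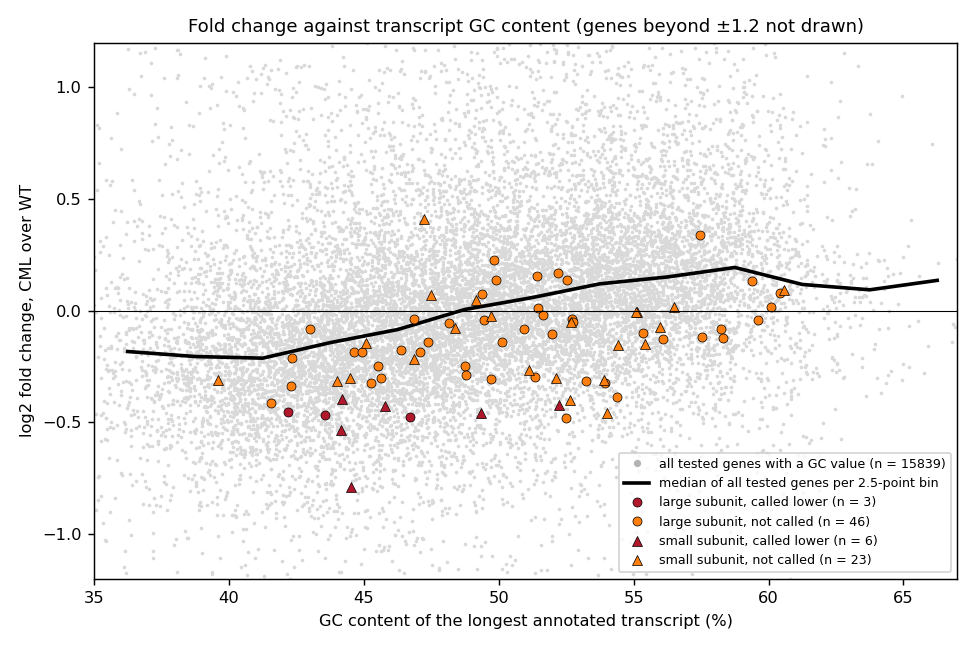
log2 fold change of CML over WT against the GC content (%) of the longest annotated coding transcript, for all tested genes with a GC value (grey, n = 15839; black line, their median per 2.5-point bin) and for mitoribosomal genes (circles, large subunit; triangles, small subunit; red, called lower). The median of all genes is -0.18 below 45% GC and 0.16 from 55% GC upwards, and that of mitoribosomal genes is -0.33 and -0.02.

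With GC and length trends of each library removed, an alternative chosen after seeing the data, 9 mitoribosomal genes were called lower and Mrps36 higher (0.57, adjusted p = 0.0495). Of the 9 original calls 6 remained, and Mrpl42 (adjusted p = 0.111), Mrps22 (0.109) and Mrps31 (0.0573) were lost. On the log2 scale the lost genes stood at -0.29 for Mrpl42, -0.26 for Mrps22 and -0.36 for Mrps31. Of those that remained, 4 stood nearer 0 than before (Mrps18c at -0.56, Mrpl35 at -0.35, Mrpl32 at -0.31 and Mrps30 at -0.29) and 2 farther (Mrps27 at -0.50 and Mrps2 at -0.48). Mrps18b (adjusted p = 0.0244) and Mrps23 (0.0334) were among those gained. Mrps23, a mitochondrial addition, had 41.7, 36.1 and 36.1 CPM in CML, against 47.4, 46.0 and 47.0 CPM in WT. The medians relative to all genes were -0.13 for the large and -0.18 for the small subunit in that fit. This adjustment also removes any difference between groups that follows GC content, and the part of base composition in the result was not tested.

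Genes that start head to head with a mitoribosomal gene were read from the same fit. Mrps18c starts 29 bases from Helq, a DNA helicase gene, Mrpl32 starts 75 bases from Psma2, a proteasome subunit gene, and Mrps27 starts 81 bases from Ptcd2, a mitochondrial RNA-binding protein gene. The log2 fold changes of these partners were 0.03 for Helq (adjusted p = 0.945), -0.09 for Psma2 (adjusted p = 0.628) and -0.22 for Ptcd2 (adjusted p = 0.171). Whether partner and ribosomal gene differed was not tested. Among the 18 pairs, the partner of Mrpl10, Lrrc46, was not tested. The single partner called was Mitd1, beside Mrpl30, where 17.4% of all tested genes were called in either direction. Mitd1 had a CML mean of 24.5 ± 2.24 CPM and a WT mean of 37.5 ± 5.96 CPM (SD, n = 3; -0.61 on the log2 scale, edgeR adjusted p = 0.0112). Mrpl30 itself was not called (-0.18, adjusted p = 0.311). Of the 78 genes, 23 overlap a protein-coding gene on the opposite strand, and reads of such pairs cannot be told apart unless strand was used.

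In other parts of the mitochondrial translation system some genes were called lower in CML and 0 higher, beside 10.2% of all tested genes called higher. The lists are short, so the lack of higher calls says little by itself. The shares called lower were 20% of the ribosomal proteins with other names, 8% of the assembly factors, 12.5% of the translation factors and 17.6% of the tRNA synthetases, beside 7.2% of all tested genes. Of 5 ribosomal proteins with other names, Ptcd3 fell and 4 did not pass. Ptcd3, a pentatricopeptide repeat protein of the small subunit, had 154, 139 and 144 CPM in CML, against 234, 247 and 189 CPM in WT, with -0.61 as log2 fold change, 0.12 as SE and 0.00457 as adjusted p. Of 25 assembly factors, 2 fell and 23 did not pass, with a median of 0.03. Their share called lower was near that of all tested genes, and 44% had a negative fold change, beside 50.4% of all. Fastkd2, which binds the large ribosomal RNA, and Gtpbp10, a GTPase of large-subunit assembly, stood at -0.58 and -0.44 on the log2 scale (adjusted p = 0.0115 and 0.0250).

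Of 16 translation factors, 2 fell and 14 did not pass (median -0.14). Guf1, an elongation factor, averaged 114 ± 8.58 CPM over CML and 166 ± 25.4 CPM over WT libraries (SD, n = 3; -0.53 on the log2 scale, edgeR adjusted p = 0.0137). Slirp, a partner of Lrpprc in holding mitochondrial messenger RNA stable, averaged 14.8 ± 2.90 CPM over CML and 24.2 ± 4.94 CPM over WT libraries (-0.71, edgeR adjusted p = 0.0224). Of 17 mitochondrial tRNA synthetases, 3 fell and 14 did not pass (median -0.11). They were Mars2, Nars2 and Yars2, at -0.62, -0.51 and -0.48 (adjusted p = 0.00294, 0.0151 and 0.0234). Of 10 genes of mitochondrial DNA transcription and replication, Ssbp1, a single-strand binding protein, fell (-0.42, edgeR adjusted p = 0.0305). That is 10% of the list, beside 7.2% of all tested genes called lower, and the median was -0.21.

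Of 10 tested regulators of nuclear genes for mitochondria, Mycn, a paralogue of Myc, fell and 9 did not pass. That is 10% of the list, beside 7.2% of all tested genes called lower. Mycn fell by 3.03 on the log2 scale (edgeR adjusted p = 2.95e-07). It had 10.9, 13.2 and 14.6 CPM in CML, against 84.5, 102 and 129 CPM in WT. Nrf1, Gabpa and Yy1, the factors of 3 of the motifs, stood at -0.02, -0.16 and -0.13 on the log2 scale, and none passed (adjusted p = 0.931, 0.348 and 0.481). Myc itself, named above for the E-box, stood at -0.07 (edgeR adjusted p = 0.843), with means of 34.2 CPM in CML and 35.8 CPM in WT. Nuclear subunits of oxidative phosphorylation, which work with the products of these ribosomes, had 10 of 76 called lower and 0 higher with a median of -0.26. The lowest adjusted p among them were those of Atp5g3 (-0.60, adjusted p = 0.00260), Cox7b (-0.57, 0.00369) and Ndufa4 (-0.60, 0.00426). Cytosolic ribosomal proteins had 16 of 75 called lower and 0 higher with a median of -0.17, led by Rpl39 (-0.80, adjusted p = 0.00234), Rpl5 (-0.62, 0.00239) and Rpl9 (-0.51, 0.00618). The counts called lower make 13.2% and 21.3% of the lists, beside 11.5% for the 78 mitoribosomal genes and 7.2% for all tested genes. Of all tested genes, 10.2% were called higher. The differences between lists were not tested.

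**Figure D5:**
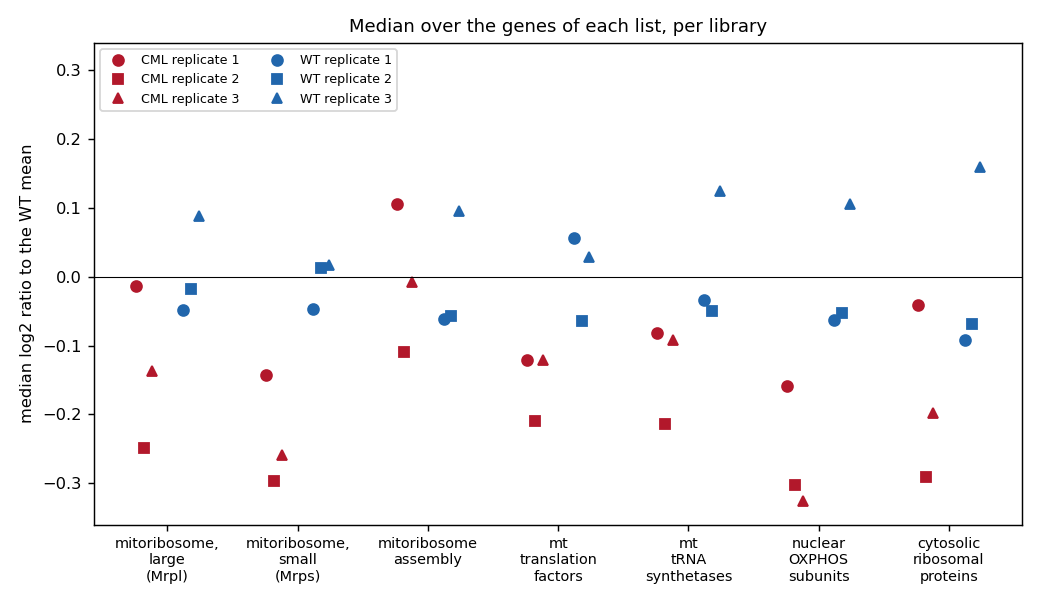
Median log2 ratio to the WT mean over the genes of each list in each of the 3 CML (red) and 3 WT (blue) libraries. For small-subunit genes the CML libraries lie between -0.30 and -0.14, below the WT libraries at -0.05 to 0.02, whereas for large-subunit genes CML replicate 1 (-0.01) lies among the WT libraries.

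Markers of several other cell types differed in summed level between the groups. The 12 mast cell and basophil markers summed to between 2089 and 7323 CPM in CML and between 184 and 375 CPM in WT, highest in CML replicate 2, and Mcpt1 was at 0 in all WT libraries. The 10 monocyte and macrophage markers summed to between 121 and 214 CPM in CML and between 23.9 and 35.3 CPM in WT. The 10 lymphoid markers summed to between 49.8 and 60.8 CPM in CML and between 14.5 and 20.1 CPM in WT. Only 4 of these 10 had enough counts to be tested, of which 3 were called higher. Most of the lymphoid sum in CML came from Cd79b (mean 30.0 CPM in CML and 10.5 in WT) and Ighm (15.3 and 2.76). The 8 megakaryocyte markers summed to between 125 and 194 CPM in CML and between 275 and 299 CPM in WT. The 10 erythroid markers summed to between 405 and 458 CPM in CML and between 478 and 597 CPM in WT, but its members went both ways. Of 8 tested, 2 were called higher in CML (Aqp1, a water channel, at 4.54 on the log2 scale, and Klf1, an erythroid transcription factor, at 3.48) and 3 lower (Hbb-bs at -2.01, Hbb-bt at -2.23 and Tfrc at -0.92). The 10 neutrophil markers overlapped, at 115 to 199 CPM in CML and 96.2 to 188 CPM in WT, with Camp at 0 in all WT libraries. The gate genes Kit, Ly6a and Slamf1 were detected in each library and summed to between 295 and 594 CPM in CML and between 348 and 387 CPM in WT. Kit made up most of that sum. Slamf1, which encodes the CD150 of the gate, had 11.2, 19.2 and 12.1 CPM in CML, against 23.6, 31.8 and 18.7 CPM in WT, and was called lower (-0.80 on the log2 scale, adjusted p = 0.0470). Ly6a, which encodes Sca1, stood at 1.03 and did not pass (adjusted p = 0.173). Of 12 proliferation genes, Tyms rose (0.50, adjusted p = 0.00499), Ccnb1 and Cdk1 fell (-0.50 and -0.45, adjusted p = 0.00839 and 0.0183), and 9 did not pass. Of the proliferation genes, 16.7% were thus called lower and 8.33% higher, beside 7.2% and 10.2% of all tested genes. The part of the other cell types and of cycling in the mitoribosomal result was not tested.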

How the data were processed

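Bulk RNA of 3 CML and 3 WT libraries was sequenced, with groups and replicate numbers read from the sample titles. The authors deposited estimated counts per gene symbol, which are not scaled, and between 35.0% and 36.9% of a library's values are not whole numbers. Per the submitters' processing notes, STAR 2.7.3a, Partek 8.0 and mm10 were used, in no stated order or role. The labels give no annotation, strand setting or treatment of shared reads.

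Counts were rounded. Genes were filtered with filterByExpr (minimum count 10), and 16221 of 29872 were tested with edgeR 4.0.16 (R 4.3.3; TMM scaling, robust quasi-likelihood F test, two-sided, group as the only term, adjusted p under 0.05). SE is the absolute fold change divided by the root of F. Log2 ratios per library used CPM plus 0.5. GENCODE M21 gave positions and GC content. The pipeline was tested on simulated data with larger changes than those of the mitoribosomal genes called here. That test does not show how changes of their size are recovered. Alternatives were 3 other scalings, 2 other filters, DESeq2 1.42.0, limma-voom (limma 3.58.1), a replicate block, each library left out and subunits by location.

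Genes given per library were, per subunit, the 6 called genes with the lowest adjusted p in each direction, the 3 largest fold changes, the 3 highest and 3 lowest levels per length (mean of both groups), and also Mrps18a, Mrps18b, Mrps18c, Mrpl12, Mrps30 and Mrps36. A further planned clause, genes whose sign an alternative reversed, was applied only among these, so 20 such genes near 0 have no values per library in the text. Members and lists were chosen with earlier results of these data known. Mitochondrially encoded genes were not analysed here.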

Additional observations from a re-analysis of the deposited data

How the results depend on the processing

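The medians of both subunits stayed negative in each of the 15 alternatives and with subunits by location. Scaled by library totals alone, 732 genes were lower in CML (2065 higher, 73.8% of calls, against 58.6% with TMM scaling), 0 large-subunit and 1 small-subunit genes were called lower, and the small-subunit median was -0.12. With GC and length trends removed, 1 small-subunit gene was called higher. Leaving out 1 library at a time gave 1466 to 4122 genes called, 1011 to 2021 higher and 455 to 2101 lower, with 0 to 5 large-subunit and 1 to 8 small-subunit genes called lower, large-subunit medians of -0.19 to -0.04 and small-subunit medians of -0.33 to -0.18. The counts of all called genes were 1861 without CML replicate 2, 1771 without CML replicate 3, 1857 without WT replicate 1 and 1466 without WT replicate 2. They were 3169 without CML replicate 1 and 4122 without WT replicate 3, against 2820 with all libraries. The cause of these shifts was not tested.

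Signs turned in at least 1 of the 15 alternatives for 26 of the 78 genes, none of them called, the farthest from 0 with a log2 fold change of 0.13. They were 16 genes with library totals, 11 without WT replicate 3 and 7 with GC and length trends removed, among other alternatives. Of the 26, 6 have values per library above. With library totals Mrpl23 was at 0.078, Mrpl28 at 0.012, Mrpl36 at 0.016, Mrps18a at 0.022 and Mrps35 at 0.017, and with GC and length trends removed Mrpl23 was at 0.037. Leaving out 1 library gave -0.23 to 0.0087 for Mrpl12, -0.15 to 0.17 for Mrpl23, -0.19 to 0.060 for Mrpl28 and -0.14 to 0.058 for Mrps18a, with the positive values without WT replicate 3 and, for Mrpl23, also without CML replicate 1.

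The labels do not state whether replicate numbers pair the libraries. Same-numbered libraries had deviations from their group means that correlated at -0.03, -0.05 and 0.01. Differently numbered ones ran from -0.06 to 0.09. These values cannot exclude a pairing, because each group mean rests on 3 libraries. With the replicate block, 2807 genes were called, 4 large-subunit and 4 small-subunit genes among them, and the medians were -0.12 and -0.22. Mrps22 and Mrps27 missed the threshold there (adjusted p = 0.0502 each) and Mrpl1 passed it (0.0305). SEs rest on 3 libraries a group.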
